A study of Homo sapiens with 80 samples.

Results

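The 40 genes described here take up, bind, activate and oxidise fatty acids or control those steps, and they were followed while human pluripotent stem cells became cardiomyocytes. They were chosen as a list of gene symbols, with no threshold on measured values, and all 40 were found among the 43388 genes of each deposited expression table. By role they comprise 4 uptake genes (LPL, CD36, SLC27A1, SLC27A6), 3 binding proteins (FABP3, FABP4, FABP5), 3 acyl-CoA synthetases (ACSL1, ACSL3, ACSL4) and 5 genes of the carnitine shuttle (CPT1A, CPT1B, CPT1C, CPT2, SLC25A20). A further 12 encode enzymes of mitochondrial beta-oxidation (ACADVL, ACADL, ACADM, ACADS, HADHA, HADHB, HADH, ECHS1, ECI1, ECI2, ACAA2, DECR1), 3 encode electron transfer proteins (ETFA, ETFB, ETFDH), 7 are regulators (PPARA, PPARD, PPARG, PPARGC1A, PPARGC1B, ESRRA, ESRRG) and 3 act on fuel choice or uncoupling (PDK4, UCP2, UCP3).

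The study set cultures whose final cardiomyocyte share was high against cultures where it was low, called here the high-purity and low-purity classes. The main time course used WTC11, an induced pluripotent stem cell line, in 56 wells taken every other day up to day 10 and then on days 13 and 16. The high-purity class was 1 differentiation started at passage 52 (25 wells: 4 on each of days 0 to 6, then 3, 1, 2 and 3 on days 8, 10, 13 and 16). The low-purity class was 1 differentiation started at passage 69 (31 wells: 4 a day, and 3 on day 16). In every group differentiation began with CHIR99021, which activates Wnt signalling, and went on with IWP2, which blocks Wnt secretion. A second, RNA-only experiment used WTC11, the induced pluripotent line IMR90-4 and the embryonic stem cell line H9, each as 1 high-purity and 1 low-purity differentiation at 4 stages (24 libraries). Its stages 1 to 4 were days 0, 2, 4 and 6 for WTC11 and days 0, 3, 5 and 7 for H9 and IMR90-4. The passages there were 81 and 69 for high- and low-purity WTC11, 58 and 55 for H9, and 55 and 75 for IMR90-4. In the time course, purity class, passage and differentiation cannot be told apart, and the wells of a class measure the spread within 1 differentiation.

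As background, a heart cell obtains fatty acids from circulating triglyceride through lipoprotein lipase (LPL) and membrane transporters such as CD36 and the SLC27 family. FABP proteins carry the acids through the cytosol, ACSL enzymes attach coenzyme A, and CPT1, the carrier SLC25A20 and CPT2 pass the acyl group into mitochondria, where each round of beta-oxidation shortens the chain and hands electrons to the ETF proteins. The nuclear receptors of the PPAR and estrogen-related receptor (ESRR) families, with the coactivators PPARGC1A and PPARGC1B, are known regulators of these genes. Heart muscle shifts from mainly glucose to mainly fatty acids as fuel around birth.

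Promoter sequences from RefSeq (build GRCh38.p14) were found for 34 of the 40 genes, as 64 windows of the 250 bases before a transcription start. The windows were searched on both strands for 3 motifs. TNAAGGTCA, an element bound by estrogen-related receptors, was in 0 member windows against 0.851% of 34788 distinct windows of the same length. The direct repeat bound by PPAR with RXR, written as AGGTCA, any 1 base and AGGTCA again, was in 0 member windows against 0.0115%. The shorter core AAGGTCA, contained in the first motif, was searched after those had no match and was in 4 windows of 2 members against 3.44% of windows: 3 windows of PPARG and 1 of the 8 of ESRRG. Of the PPARG windows, 2 overlap and hold the same site, so the 4 windows hold fewer than 4 separate sites. Absence of these letters says nothing about binding elsewhere. The 4 windows below are shown because SLC27A6, FABP3 and ESRRG carry the results on uptake, binding and regulation, and because HADHB shares its promoter region with HADHA on the opposite strand. Each is written 5′ to 3′ along its gene. Capitals mark AAGGTCA.
SLC27A6, chr5:128965238-128965487, plus strand: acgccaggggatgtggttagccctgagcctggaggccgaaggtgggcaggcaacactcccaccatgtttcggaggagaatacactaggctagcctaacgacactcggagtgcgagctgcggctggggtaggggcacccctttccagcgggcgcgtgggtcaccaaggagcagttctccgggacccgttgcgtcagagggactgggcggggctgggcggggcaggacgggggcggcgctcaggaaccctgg
FABP3, chr1:31373077-31373326, minus strand: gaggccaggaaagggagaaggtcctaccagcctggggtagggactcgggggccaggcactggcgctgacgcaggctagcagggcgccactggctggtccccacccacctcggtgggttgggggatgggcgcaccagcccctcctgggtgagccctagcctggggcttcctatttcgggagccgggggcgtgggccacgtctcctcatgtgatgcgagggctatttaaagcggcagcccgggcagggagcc
HADHB, chr2:26244689-26244938, plus strand: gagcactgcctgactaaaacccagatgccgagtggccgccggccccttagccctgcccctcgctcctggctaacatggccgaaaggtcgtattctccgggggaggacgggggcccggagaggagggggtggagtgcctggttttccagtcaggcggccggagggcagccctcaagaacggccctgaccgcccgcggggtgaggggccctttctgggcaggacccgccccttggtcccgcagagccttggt
ESRRG, chr1:217076993-217077242, minus strand: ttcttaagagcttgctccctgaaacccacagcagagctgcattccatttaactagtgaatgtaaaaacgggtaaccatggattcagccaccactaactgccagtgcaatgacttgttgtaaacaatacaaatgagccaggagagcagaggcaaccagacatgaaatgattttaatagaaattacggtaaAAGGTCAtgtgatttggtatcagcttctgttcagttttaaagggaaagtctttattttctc

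The windows of SLC27A6 and FABP3 were 67.6% and 69.2% G or C and held 18 and 13 CG dinucleotides, against a median of 58% and 11 over the distinct windows. The ESRRG window was 39.6% G or C and held 2 CG dinucleotides, and its match began 61 bases before the start. HADHA starts at base 26244632 of chromosome 2 on the minus strand and HADHB at base 26244939 on the plus strand, leaving 306 bases between them.

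Expression is given as TPM, the deposited transcript level scaled by gene length and by library. Totals were 6579715 to 18143597 reads per well in the time course and 17990882 to 40357968 in the RNA-only libraries. Differences were tested with limma on log2(TPM + 1) over 25664 genes, and a gene was called when its Benjamini-Hochberg adjusted p was under 0.05 and its log2 change at least 1. Of the 40 genes, 38 passed the filter of 1 TPM in 3 wells. FABP4, the fatty acid binding protein of fat cells, had 0 to 2 reads in every well, and CPT1B, the muscle form of CPT1, had 0 to 10 reads and at most 0.759 TPM. The CPT1B gene lies within the readthrough gene CHKB-CPT1B, so how reads were divided between them can affect its count. The cardiac identity of the late cells was checked with 13 cardiomyocyte markers, whose summed level on day 16 was 12523 to 14731 TPM in high-purity wells and 4456 to 6619 TPM in low-purity wells. These markers did not all move together. NPPA was higher in the low-purity wells of that day (49.2 to 80.5 against 33.1 to 44.2 TPM), and MYH7, MYL7 and MYL2 overlapped between classes. The others of the list were higher in every high-purity well. The 9 fibroblast and stromal markers summed to 1139 to 1675 TPM and 11817 to 15886 TPM in the same wells. Summed epicardial markers were 20.9 to 30.4 and 418 to 570 TPM. The 9 endothelial markers did not move together: KDR and TEK were higher in the low-purity wells, and PECAM1, CDH5, CD34, PLVAP and ESAM in the high-purity wells. In such bulk samples fewer cells of a type and less RNA per cell cannot be told apart, and the part of cell composition in the differences below was not tested beyond the ratios to TNNT2 given later.

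Between 8 and 11 of the 38 tested members were higher in the high-purity class on each tested day from day 8 on, among them LPL, the transporter SLC27A6, the synthetase ACSL1, the electron carrier subunit ETFB and the regulators PPARGC1A and ESRRG. No member was called between classes on day 0 (0 of 38 higher, 0.242% of all genes, and 0 lower, 0.826%). For that day edgeR on recovered reads called 1 member, ACADS, and of all 24223 genes it called 170 higher and 473 lower. On day 2, 1 member was higher (2.24% of all genes were) and 1 lower (3.08%) in the high-purity class. The corresponding counts were 0 higher (3.62%) and 2 lower (4.22%) on day 4 and 3 higher (3.61%) and 0 lower (5.19%) on day 6. On day 8, 11 members were higher (4.66%) and 0 lower (7.5%). Day 13 had 9 higher (4.55%) and 0 lower (6.23%), and day 16 had 8 higher (5.76%) and 1 lower (7.65%). The median difference over the 38 members was 0.53, 0.43 and 0.49 on the log2 scale on days 8, 13 and 16, where the median of all genes was -0.03, 0.00 and 0. LPL and ACSL1 were called on 4 of the 7 days tested, 7 members on 3 days, and 26 of the 40 on none. Day 10 had 1 high-purity well and was not tested.

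With the adjusted p alone and no fold threshold, 14 members differed on day 0 (14.6% of all genes did), and 16, 21 and 21 did so on days 2, 4 and 6 (37.4, 36.8 and 39.9%). Days 8, 13 and 16 had 29, 26 and 26 such members (44.1, 35.9 and 43%). Of the 29 members of day 8, 27 were higher in the high-purity class. They included 11 of the 12 oxidation enzymes and all 3 electron transfer genes, most of them by less than the fold threshold. On day 0 HADHA, ECHS1, ECI1 and ACAA2 were among the 13 that were higher and FABP5 was the 1 lower.

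**Figure D1:**
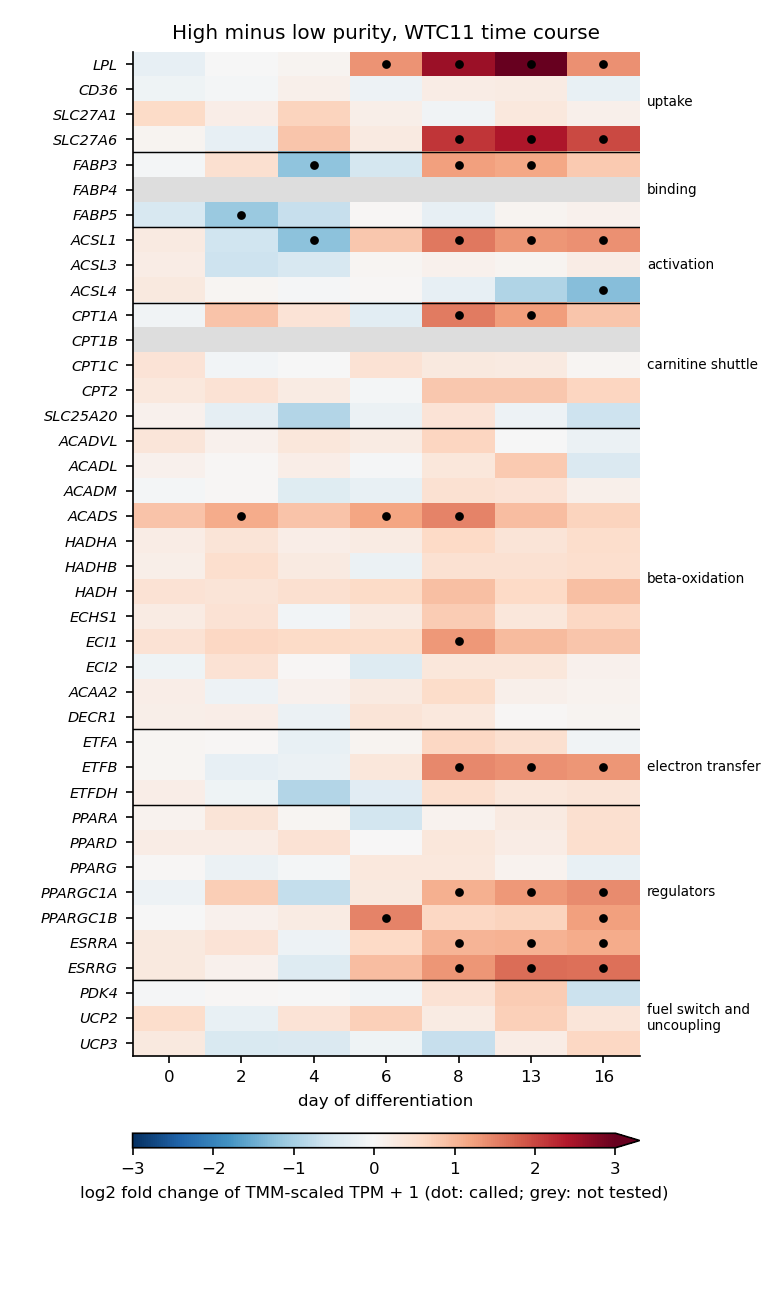
Log2 fold change of high-purity minus low-purity wells (color, saturating at -3 and 3) for the 40 genes (rows, ordered by role) on 7 days (columns). Dots mark called differences and grey marks genes that did not pass the filter. Dots gather on days 8, 13 and 16, where 11, 9 and 9 of 38 members were called.

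On day 8 every high-purity well lay above every low-purity well for 28 members and below for 2, while 43% of all genes did not overlap in either direction. The corresponding members numbered 30 and 1 on day 13 (47% of all genes) and 25 and 4 on day 16 (48.1%). On days 0, 2, 4 and 6 they were 16 and 1 (19.3%), 13 and 4 (34.6%), 11 and 9 (33.9%), and 12 and 1 (32%). The 2 uptake genes LPL and SLC27A6 of 4, FABP3 of the 2 binding proteins tested, ACSL1 of 3 synthetases, CPT1A of 4 shuttle genes tested, ACADS and ECI1 of 12 oxidation enzymes, ETFB of 3 electron transfer genes and PPARGC1A, ESRRA and ESRRG of 7 regulators made up the day 8 calls. By day 16 the calls were in uptake (2 of 4), activation (2 of 3), electron transfer (1 of 3) and the regulators (4 of 7), with 0 of 12 oxidation enzymes.

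LPL, the secreted enzyme that releases fatty acids from triglyceride, was high in pluripotent cells, at or under 0.775 TPM on days 2 and 4, and was higher in the high-purity class on each tested day from day 6 on. On day 0 its level was 13.0, 14.6, 15.7 and 15.8 TPM in high-purity wells and 15.1, 19.4, 16.4 and 17 TPM in low-purity wells. The day 0 groups overlapped. On day 8 it was 8.63, 4.75 and 4.21 TPM in high-purity wells and 0.0922, 0.176, 0.491 and 0.0777 TPM in the low-purity wells. On day 13 the 2 high-purity wells held 19.1 and 30.2 TPM (224 and 353 reads), and the 4 low-purity wells 0.0714, 0.238, 0.12 and 0 TPM (1, 3, 2 and 0 reads). High-purity wells were far above all low-purity wells on both days. The differences (log2 ± SE, limma) were 1.34 ± 0.19 on day 6 (adjusted p = 8.08e-08), 2.56 ± 0.20 on day 8 (adjusted p = 1.71e-14) and 4.64 ± 0.23 on day 13 (adjusted p = 5.31e-21). On day 16 LPL in the high-purity wells was at 1.60, 1.87 and 2.44 TPM, above the 0.277, 0.189 and 0.435 TPM of low-purity wells (1.38 ± 0.21, adjusted p = 6.28e-07). With so few reads in the low-purity class the size of the fold depends on the pseudocount: at 0.1 in place of 1 it was 7.165 on day 13, and edgeR on recovered reads gave 7.93. LPL is also made by fat cells and macrophages. Of the 6 adipocyte markers ADIPOQ and CFD were at 0 in all wells of day 16, where the list summed to 2.66 to 4.83 TPM in high-purity and 3.29 to 3.84 TPM in low-purity wells. The 7 macrophage markers summed to 5.52 to 7.53 TPM in high-purity and 10.9 to 13.2 TPM in low-purity wells of that day, with AIF1 at 0 in all of them. On day 13, where the LPL difference was largest, ADIPOQ and AIF1 were also at 0 in all wells. CIDEC was at 0.215 to 0.216 TPM in high-purity and 0 to 0.180 TPM in low-purity wells. The other adipocyte markers of that day overlapped. CD68 was at 4.11 to 4.25 and 5.86 to 10.1 TPM and CSF1R at 1.425 to 1.773 and 1.843 to 2.385 TPM in the same order. The remaining macrophage markers overlapped or were at 0. The part of these cell types in the LPL levels was not tested.

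SLC27A6, a fatty acid transport protein prominent in heart, had its highest mean level on day 16 in both classes. Its levels on day 8 were 14.4, 14.3 and 14.9 TPM in high-purity wells and 1.83, 4.18, 4.18 and 2.40 TPM in the low-purity wells. On day 16 they were 34.9, 48.1 and 34.1 TPM against 6.85, 12.6 and 14.2 TPM. The groups did not overlap on either day, and low-purity well 1 was the lowest on both. The differences were 2.15 ± 0.23 on day 8 (adjusted p = 2.06e-10), 2.42 ± 0.27 on day 13 (adjusted p = 3.38e-10) and 1.97 ± 0.25 on day 16 (adjusted p = 7.48e-09) by limma. From day 0 to day 16 SLC27A6 rose by 2.69 ± 0.23 in the high-purity class (adjusted p = 5.79e-14), and the change there exceeded that of the low-purity class by 1.89 ± 0.33 (adjusted p = 9.23e-06). An earlier crest on day 4, at 14.9 to 17.4 TPM in high-purity and 7.48 to 9.74 TPM in low-purity wells, was followed by 1.98 to 3.55 TPM in all wells on day 6.

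The other uptake genes separated the classes little. CD36, the main fatty acid translocase of adult heart, stayed at 1.84, 3.25 and 3.09 TPM in high-purity and 3.21, 4.66 and 3.61 TPM in low-purity wells of day 16, which overlapped. It rose from day 0 in both classes, by 1.87 ± 0.14 and 1.96 ± 0.14 (limma adjusted p = 3.54e-16 and 7.91e-17). SLC27A1, the transporter shared with skeletal muscle, rose by 1.47 ± 0.12 and 1.89 ± 0.12 (adjusted p = 5.55e-15 and 1.23e-18) to 9.12 to 10.8 and 9.47 to 10.8 TPM.

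**Figure D2:**
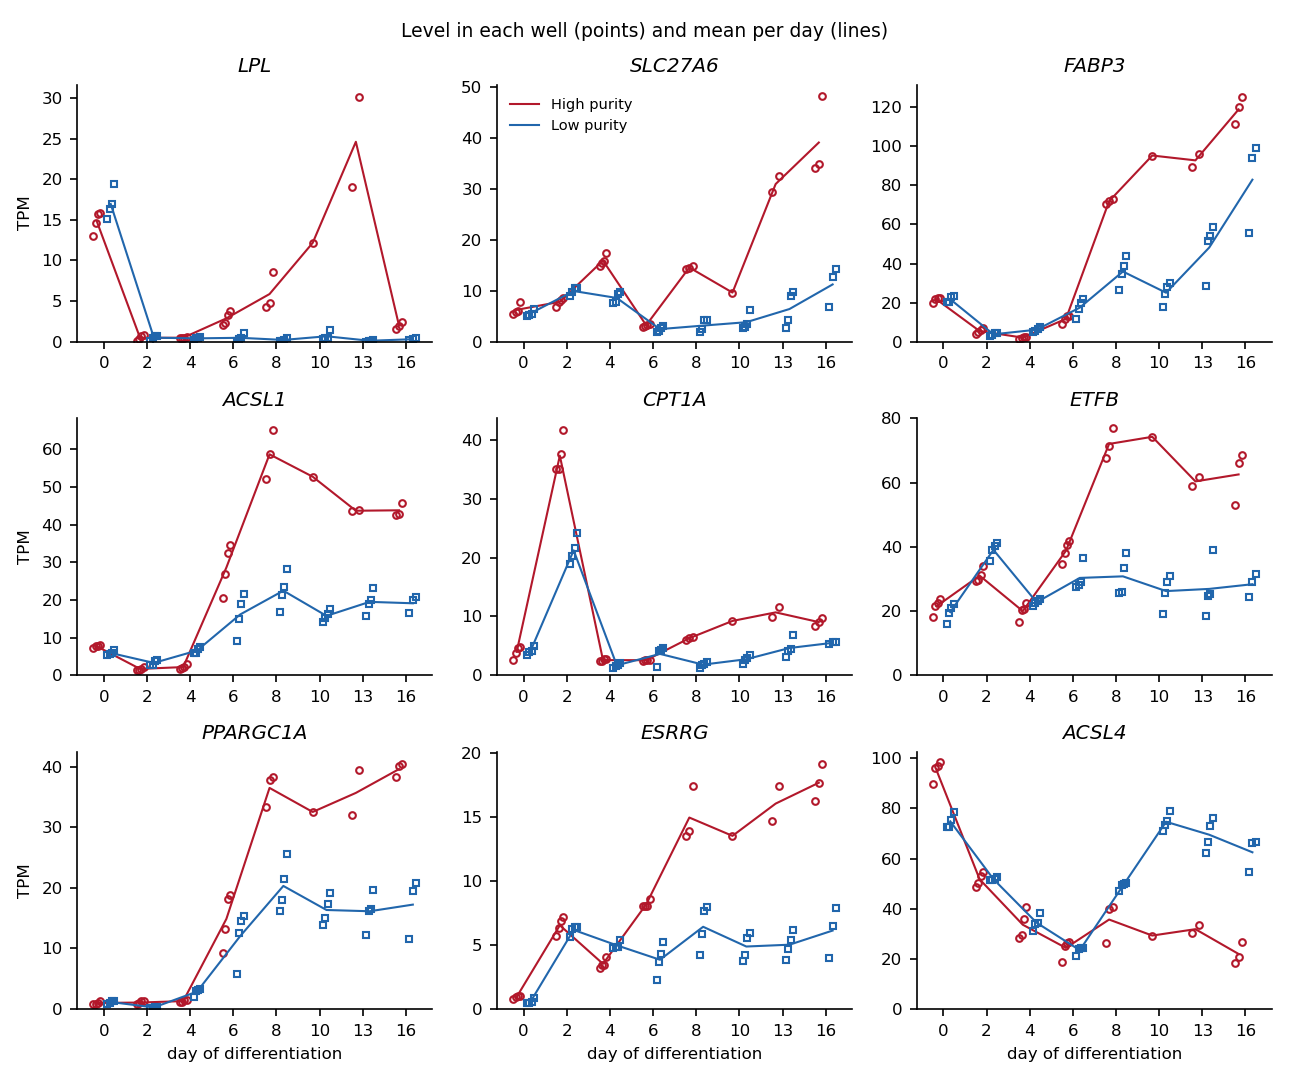
TPM of 9 members in each well (high-purity circles, low-purity squares) against day, drawn at equal steps from day 0 to day 16, with lines through the class means. LPL in high-purity wells reaches 19.1 and 30.2 TPM on day 13 while low-purity wells stay at or under 0.238 TPM, and ACSL4 runs the other way on day 16 (18.4 to 26.6 against 54.6 to 66.8 TPM).

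The binding proteins exchanged places over the time course, from FABP5, the epidermal form, to FABP3, the heart and muscle form. FABP5 was at 168, 154, 161 and 181 TPM in high-purity and 228, 225, 214 and 225 TPM in low-purity wells of day 0, and at 21.8, 24.7 and 24.5 and 32.7, 17.6 and 26.6 TPM on day 16, where the classes overlapped. It fell by 2.55 ± 0.16 and 3.17 ± 0.16 on the log2 scale in the 2 classes (limma adjusted p = 5.69e-19 and 2.21e-22). FABP3 moved the opposite way, from 19.8 to 22.6 and 20.2 to 23.4 TPM on day 0 to 126, 120 and 111 TPM in high-purity and 55.5, 99.3 and 94.1 TPM in low-purity wells of day 16. On day 16 the classes did not overlap, the high-purity wells being higher, and low-purity well 1 stood lowest. FABP3 rose by 2.63 ± 0.22 and 1.79 ± 0.22 (adjusted p = 1.3e-14 and 8.7e-10).

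Class differences in FABP3 changed sign between days. On day 4 its level was 1.42, 2.45, 1.96 and 2.40 TPM in high-purity wells and 5.32, 6.42, 5.00 and 7.74 TPM in low-purity wells, a difference of -1.20 ± 0.20 (limma adjusted p = 4e-06). On day 8 it was 70.7, 73.1 and 72.1 against 34.6, 38.8, 43.9 and 26.3 TPM (1.23 ± 0.22, adjusted p = 7.63e-06), and on day 13 the difference was 1.17 ± 0.25 (adjusted p = 0.000159), or 0.93 without low-purity well 1. Without scaling between libraries the day 13 difference was also below the fold threshold. The groups did not overlap on any of these days. On day 16 the difference of 0.78 ± 0.23 was below the fold threshold (adjusted p = 0.00546). Cardiac troponin T (TNNT2) had the same order of classes: on day 4 it was 10.3 to 20.8 TPM in high-purity and 457 to 524 TPM in low-purity wells (difference -4.95, limma adjusted p = 1.55e-19), and on day 8 it was higher in the high-purity class by 1.35 (adjusted p = 0.000176). FABP3 shares 5349 bases with ZCCHC17 on the genome (up to 60.7 TPM here), and the strand setting of the counting is not given in the sources used here.

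FABP5 and CPT1A, the liver-type carnitine palmitoyltransferase that admits acyl groups to mitochondria, spiked on day 2 of the WTC11 time course. CPT1A went from 2.62 to 4.90 TPM on day 0 to 35, 41.7, 37.5 and 35.1 TPM on day 2 in high-purity wells, and from 3.52 to 4.93 TPM to 24.2, 20.3, 21.6 and 18.8 TPM in low-purity wells. By day 4 it was back at 2.41 to 2.76 and 1.18 to 2.15 TPM. The rise was 2.94 ± 0.17 in the high-purity class and 1.98 ± 0.17 in the low-purity class (limma adjusted p = 2.34e-19 and 1.06e-13). FABP5 on day 2 was 617, 479, 517 and 663 TPM in high-purity wells and 1308, 1278, 1322 and 1250 TPM in low-purity wells, so that the groups were far apart (high minus low -1.12 ± 0.14, adjusted p = 2.11e-08). Its rise from day 0 was 1.73 ± 0.14 and 2.36 ± 0.14 (adjusted p = 3.74e-14 and 1.24e-18). The 2 genes had opposite class orders on day 2, CPT1A being higher in all high-purity wells (0.85 ± 0.17, adjusted p = 7.7e-05, below the fold threshold) and FABP5 lower.

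In the RNA-only experiment the CPT1A crest was in WTC11 only among the 3 lines. At stage 2 CPT1A was 8.45 and 5.603 TPM in high- and low-purity WTC11, from 2.04 and 1.89 TPM at stage 1, while H9 and IMR90-4 were at 0.779 to 1.65 TPM. FABP5 at stage 2 was 324 TPM in high-purity WTC11, above its 218 TPM at stage 1, and 134 TPM in low-purity WTC11, below its 235 TPM. In H9 and IMR90-4 it was 61.8 to 114 TPM, below stage 1 in each. Stage 2 was day 2 for WTC11 and day 3 for the other lines, so line and day cannot be told apart, and with 1 library per differentiation these are values without a test.

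**Figure D3:**
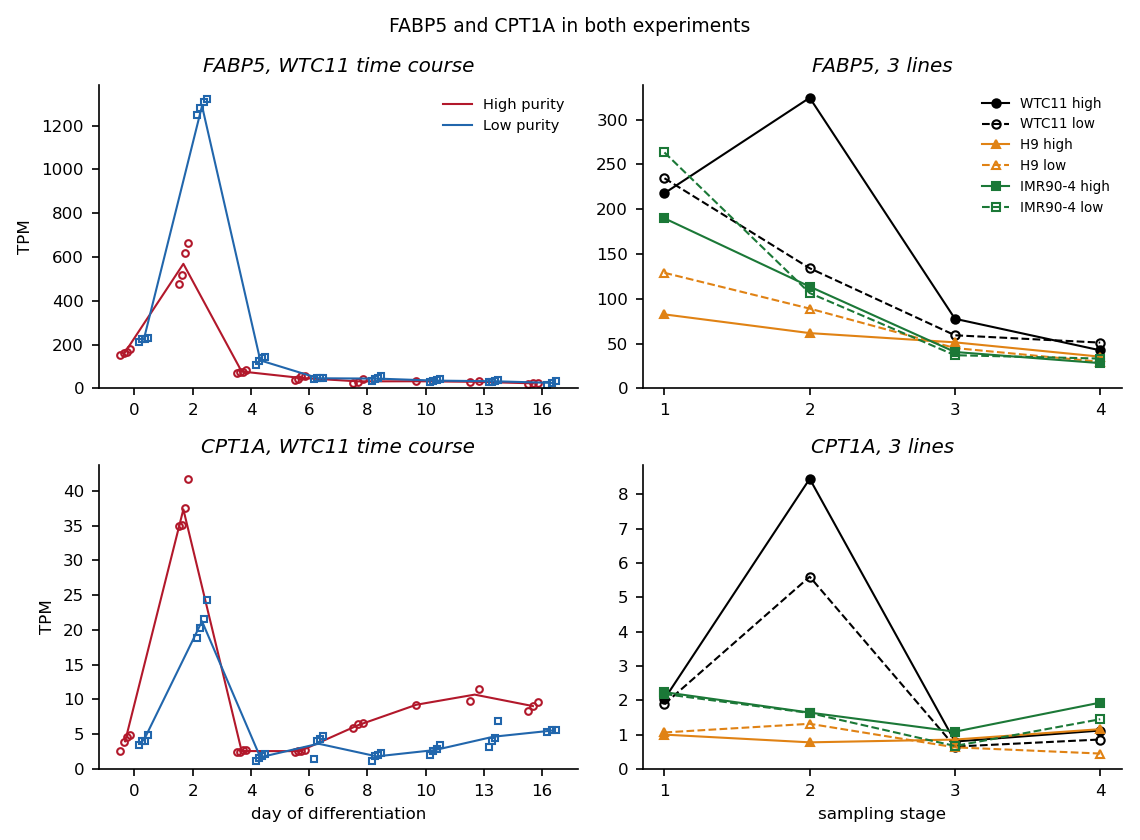
TPM of FABP5 and CPT1A in each well of the WTC11 time course and in each library of the 3-line experiment, by day or stage and purity class. Both genes peak on day 2 in the time course (CPT1A 18.8 to 41.7 TPM, FABP5 479 to 1322 TPM), and stage 2 CPT1A is highest in the WTC11 libraries.

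Of the enzymes that attach coenzyme A, ACSL1 and ACSL4 differed between classes in opposite directions on day 16. ACSL1 is the main form of heart, and ACSL4 prefers arachidonic acid. ACSL1 dipped to 1.49 to 2.11 TPM in high-purity wells on day 2, then rose to 52.1, 65.0 and 58.8 TPM on day 8, against 16.8, 23.5, 28.2 and 21.4 TPM in the low-purity wells. On day 16 it was 42.9, 45.8 and 42.6 TPM against 16.6, 20.8 and 19.99 TPM. No low-purity well reached the lowest high-purity well on either day. The differences were 1.59 ± 0.17 on day 8 (limma adjusted p = 1.1e-10), 1.32 ± 0.19 on day 13 (adjusted p = 2.35e-07) and 1.38 ± 0.18 on day 16 (adjusted p = 1.6e-08). On day 4 the order was reversed, with 2.20, 1.69, 1.97 and 2.93 TPM in high-purity wells and 7.48, 6.94, 5.92 and 5.99 TPM in low-purity wells (-1.24 ± 0.16, adjusted p = 9.87e-09), on the same day that TNNT2 was higher in the low-purity class.

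ACSL4 was the one member called lower in the high-purity class on day 16. It started at 89.6 to 98.5 TPM in high-purity and 72.5 to 78.8 TPM in low-purity wells and declined in both to 18.9 to 26.9 and 21.2 to 24.4 TPM on day 6. It then returned in the low-purity class, to 71.2 to 79.1 TPM on day 10, whereas the high-purity well of that day held 29.3 TPM. On day 16 it was 18.4, 26.6 and 21.0 TPM in high-purity wells and 54.6, 66.8 and 66.1 TPM in low-purity wells, with no overlap (-1.27 ± 0.10, limma adjusted p = 3.39e-14). The summed stromal markers given above were likewise higher in the low-purity wells of that day, and their part in this result was not tested. ACSL3, found on lipid droplets and the endoplasmic reticulum, was at 61.4 to 69.3 and 62.5 to 66.3 TPM on day 16 and was called on no day between classes.

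After its day 2 spike, CPT1A separated the classes from day 8, with 5.96, 6.56 and 6.41 TPM in high-purity wells against 1.17, 2.29, 2.00 and 1.84 TPM in low-purity wells. The groups were apart, with a difference of 1.56 ± 0.19 (limma adjusted p = 1.92e-09), and on day 13 it was 1.26 ± 0.21 (adjusted p = 3.93e-06). On day 16 the wells were at 8.41, 9.07 and 9.68 against 5.37, 5.62 and 5.59 TPM, still without overlap but below the fold threshold (0.83 ± 0.20, adjusted p = 0.000572), and the high-purity class had risen from day 0 by 1.25 ± 0.19 (adjusted p = 9.87e-08). CPT2, which returns the acyl group to coenzyme A inside the mitochondrion, was at 20.2 to 22.9 TPM in high-purity and 14.9 to 17.4 TPM in low-purity wells of day 16 (0.63 ± 0.09, adjusted p = 2.58e-07, below the fold threshold). The carrier SLC25A20 went the other way, with 3.21, 4.62 and 4.12 against 8.22, 7.59 and 7.15 TPM on day 16 (-0.63 ± 0.25, adjusted p = 0.035, below the fold threshold). Neither pair of groups overlapped. CPT1C, the neuronal form, fell from day 0 to day 16 in the high-purity class by 1.04 ± 0.10 (adjusted p = 2.25e-12), a call lost without high-purity well 1 of day 0 (-0.99) or of day 16 (-0.97).

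Most of the 12 enzymes of beta-oxidation were already well expressed in the pluripotent state, ACADL and ACADS being low. Their summed level on day 8 was 1020 to 1189 TPM in high-purity and 757 to 842 TPM in low-purity wells, and on day 16 it was 767 to 848 and 677 to 748 TPM. The median class difference over the 12 was 0.58 on day 8 and 0.32 on day 16, beside -0.03 and 0 over all genes. HADHA, the larger subunit of the trifunctional protein, had the highest level of the 12, at 248, 235, 244 and 256 TPM on day 0 and 234, 258 and 234 TPM on day 16 in high-purity wells, and 203, 204, 207 and 197 and then 181, 210 and 200 TPM in low-purity wells. HADHB, the smaller subunit, started lower, at 52.6 to 63.5 and 47.1 to 51.6 TPM, and reached 102, 104 and 114 and 84.3, 93.0 and 85.7 TPM. HADHB rose in the high-purity class by 1.08 ± 0.08 (limma adjusted p = 7.88e-16), a call lost without scaling between libraries. The changes were 0.77 for HADHB in the low-purity class and 0.20 and -0.10 for HADHA, all below the fold threshold, although the 2 genes start 306 bases apart in the shared promoter region printed above.

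ACADS and ECI1 were the oxidation enzymes called between classes. ACADS, the short-chain acyl-CoA dehydrogenase, was at 7.89, 7.93, 7.66 and 7.44 TPM on day 2 in high-purity wells and 4.31, 2.56, 3.45 and 2.70 TPM in the low-purity wells. On day 8 it was 14.5, 14.2 and 13.0 against 3.31, 5.56, 5.39 and 6.77 TPM. On both days the lowest high-purity well exceeded the highest low-purity well. The differences were 1.11 ± 0.21 on day 2 (limma adjusted p = 3.12e-05), 1.18 ± 0.21 on day 6 (adjusted p = 1.12e-05) and 1.48 ± 0.23 on day 8 (adjusted p = 5.87e-07). ACADS rose from day 0, where it was 1.94, 3.02, 1.85 and 3.06 TPM in high-purity and 1.44, 0.415, 0.640 and 1.20 TPM in low-purity wells, to 13.0, 10.7 and 10.9 and 5.78, 9.05 and 9.96 TPM on day 16 (2.09 ± 0.23 and 2.28 ± 0.23, adjusted p = 4.68e-11 and 3.97e-12). ECI1, an isomerase needed for unsaturated chains, was at 108, 115 and 105 against 43.4, 52.8, 55.6 and 55.9 TPM on day 8 (1.29 ± 0.10, adjusted p = 1.61e-14). The day 0 wells of ECI1 were already apart, at 49.2 to 56.05 and 32.4 to 41.0 TPM, a difference below the fold threshold.

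Among the remaining dehydrogenases, ACADVL for very long chains was higher in the high-purity class on day 8 (125, 114 and 109 against 83.8, 92.8, 84.3 and 83.6 TPM) and lower on day 16 (62.7, 69.4 and 61.3 against 87.9, 95.6 and 74.1 TPM). Neither difference reached the fold threshold, and neither pair of groups overlapped. ACADVL rose from day 0 to day 16 in the low-purity class by 1.27 ± 0.07 (limma adjusted p = 4.5e-21). ACADM, for medium chains, varied least of the 4, between 37.9 and 66.0 TPM over all 56 wells. ACADL, for long chains, stayed at or under 6.15 TPM. Over the 56 wells ECHS1, the enoyl-CoA hydratase, ranged from 66.0 to 160.9 TPM, ACAA2, the thiolase, from 62.6 to 160.3 TPM, HADH, which acts on shorter hydroxyacyl chains, from 19.9 to 59.4 TPM, ECI2, a second isomerase, from 28.1 to 61.7 TPM, and DECR1, a reductase for polyunsaturated chains, from 7.47 to 35.8 TPM. None of these 5 was called between classes on any day.

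ETFB, a subunit of the flavoprotein that takes electrons from the dehydrogenases, rose in the high-purity class by 1.72 ± 0.16 from day 0 to day 16 (limma adjusted p = 2.47e-13), and its change in the low-purity class was 0.45 ± 0.16, below the fold threshold. It was at 18.3 to 23.7 and 15.9 to 22.3 TPM on day 0. On day 8 it was 71.5, 77.0 and 67.6 against 25.6, 38.1, 33.6 and 26.0 TPM, and on day 16 66.2, 68.6 and 52.9 against 31.5, 29.2 and 24.4 TPM. High-purity wells were clear of low-purity wells on both days. The differences were 1.44 ± 0.16 on day 8 (limma adjusted p = 1.9e-10), 1.37 ± 0.18 on day 13 (adjusted p = 1.94e-08) and 1.33 ± 0.17 on day 16 (adjusted p = 6.21e-09), and the change from day 0 to day 16 differed between classes by 1.27 ± 0.22 (adjusted p = 8.87e-06). ETFDH, the next enzyme of the chain, differed by 0.38 ± 0.11 on day 16 (adjusted p = 0.00307, below the fold threshold). It shares 497 bases with PPID, which reached 336 TPM. ETFA, the other subunit of the flavoprotein, ranged from 40.2 to 94.2 TPM over the 56 wells and was called on no day between classes.

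The regulators that stood out late were PPARGC1A, PPARGC1B, ESRRA and ESRRG. PPARGC1A, the coactivator of mitochondrial genes, was at 0.866 to 1.28 TPM in high-purity and 0.902 to 1.40 TPM in low-purity wells of day 0. On day 8 it was 33.4, 38.3 and 37.7 against 16.2, 25.6, 21.5 and 17.9 TPM, and on day 16 38.3, 40.01 and 40.4 against 11.5, 20.8 and 19.4 TPM. The groups were apart on both days. It rose by 4.61 ± 0.21 and 3.04 ± 0.21 (limma adjusted p = 7.42e-24 and 2.19e-17), more than any other tested member in either class on the log2(TPM + 1) scale. That rank depends on the added 1, which damps rises from near 0 TPM. PDK4 went from a mean of 0.091 to 3.115 TPM in the low-purity class. PPARGC1A was higher in the high-purity class by 1.05 ± 0.21, 1.29 ± 0.24 and 1.42 ± 0.22 on days 8, 13 and 16 (limma adjusted p = 4.22e-05, 1.68e-05 and 7.49e-07). The day 8 fold was 0.95 without high-purity well 4 and 0.97 without low-purity well 1, just below the threshold, as it was without scaling between libraries.

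ESRRG, the estrogen-related receptor of the printed promoter, rose from day 0 to day 2 and was lower again on day 4. It was at 0.775 to 1.06 and 0.450 to 0.837 TPM on day 0, and at 5.73 to 7.23 and 5.65 to 6.45 TPM on day 2. On day 16 it was 16.2, 19.1 and 17.7 TPM in high-purity and 4.00, 6.51 and 7.89 TPM in low-purity wells, without overlap. The class differences were 1.33 ± 0.17, 1.69 ± 0.19 and 1.65 ± 0.18 on days 8, 13 and 16 (limma adjusted p = 6.13e-09, 6.07e-10 and 1.42e-10). After day 2 the low-purity class stayed between 2.25 and 7.98 TPM, while the high-purity class reached 13.5 to 17.5 TPM by day 8.

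ESRRA, the more widely expressed receptor, was at 12.3 to 16.2 TPM in high-purity and 8.50 to 13.6 TPM in low-purity wells of day 0, which overlapped. On day 16 it was 16.2, 15.7 and 13.9 TPM against 4.62, 10.7 and 9.09 TPM (1.11 ± 0.21, limma adjusted p = 2.61e-05), and on days 8 and 13 the differences were 1.01 ± 0.20 and 1.05 ± 0.23 (adjusted p = 4.45e-05 and 0.000202). These folds were close to the threshold, and none of the 3 was called without low-purity well 1 of its day (0.94, 0.99 and 0.79) or without scaling between libraries. The day 8 call was also lost without low-purity well 4 (0.94) or high-purity well 2 or 4 (0.91 and 0.97), and the day 13 call without high-purity well 3 (0.95). ESRRA shares 284 bases with TRMT112 (up to 100.2 TPM). PPARGC1B, the second coactivator, dropped from 12.3 to 13.8 TPM on day 0 to 1.41 to 2.00 TPM on day 4 in high-purity wells and returned to 13.6, 12.9 and 11.7 TPM on day 16, against 5.02, 6.74 and 5.82 TPM in low-purity wells, which did not overlap (1.22 ± 0.13, adjusted p = 2.07e-10). It was also higher in the high-purity class on day 6, at 5.72, 6.22, 6.39 and 5.04 against 1.47, 2.06, 1.105 and 0.934 TPM (1.49 ± 0.12, adjusted p = 1.9e-14).

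The PPAR receptors themselves were called on no day between classes. PPARA, the receptor that drives fatty acid oxidation in heart and liver, rose in both classes, from 2.76, 2.71, 1.96 and 1.89 TPM in high-purity and 1.96, 2.11, 2.05 and 1.75 TPM in low-purity wells of day 0 to 24.3, 27.7 and 26.1 and 19.7, 22.3 and 22.2 TPM on day 16 (3.27 ± 0.09 and 2.90 ± 0.09, limma adjusted p = 1.33e-31 and 1.28e-29). PPARD was steady at 9.65 to 16.4 TPM over the 56 wells. PPARG, the adipocyte receptor, did not exceed 1.52 TPM.

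The genes of fuel choice and uncoupling were also called on no day between classes. PDK4, the kinase that shuts off pyruvate oxidation, appeared on day 6 at 4.13 to 6.52 and 2.27 to 10.9 TPM after 0 to 0.85 TPM on days 0 to 4. On day 16 it was 0.733, 2.28 and 1.51 TPM in high-purity and 3.57, 2.94 and 2.84 TPM in low-purity wells, apart but below the fold threshold. UCP2, an inner-membrane transporter, was at 30.4, 37.3, 43.7 and 37.0 TPM in high-purity and 22.2, 23.9, 24.6 and 25.6 TPM in low-purity wells of day 0, and at 3.12, 6.59 and 6.43 and 4.86, 5.65 and 3.05 TPM on day 16. It fell by 2.44 ± 0.22 and 2.28 ± 0.22 (limma adjusted p = 2.82e-13 and 2.3e-12). UCP3, its muscle relative, ranged from 0.0900 to 3.44 TPM over the 56 wells.

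Set against day 0, more members rose than fell late in both classes. The comparisons of a class share its day 0 wells. In the high-purity class 4 members had risen (9.66% of all genes had) and 6 fallen (7.04%) by day 2, 3 risen (10.8%) and 8 fallen (7.74%) by day 4, and 14 risen (14.1%) and 5 fallen (12.7%) by day 8. In the low-purity class it was 5 risen (11%) and 4 fallen (6.87%), 4 risen (12.8%) and 6 fallen (9.35%), and 11 risen (17.2%) and 5 fallen (12.7%). On day 16, 14 had risen (19.4%) and 5 fallen (16%) in the high-purity class and 13 risen (19.5%) and 4 fallen (14.6%) in the low-purity class, and the median change of the members was 0.74 and 0.46, where that of all genes was 0.05 and 0.09. LPL, FABP5 and UCP2 were called lower on day 16 in both classes. With no fold threshold 22, 27, 32 and 34 members differed from day 0 on days 2, 4, 8 and 16 in the high-purity class (50.7, 53.6, 57.8 and 64.9% of all genes) and 28, 28, 32 and 33 in the low-purity class (53.4, 57.6, 64.2 and 64.5%).

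The change from day 0 to day 16 differed between classes for 8 members, 7 higher (5.46% of all genes were) and 1 lower (7.99%) in the high-purity class. They were LPL (1.62 ± 0.28), SLC27A6 (1.89 ± 0.33), ACSL1 (1.099 ± 0.24), ETFB (1.27 ± 0.22), PPARGC1A (1.56 ± 0.29), PPARGC1B (1.23 ± 0.18) and ESRRG (1.34 ± 0.24) on the higher side and ACSL4 (-1.55 ± 0.14) on the lower. Their limma adjusted p-values lay between 6.93e-13 and 0.000229. LPL fell in both classes, by 2.28 ± 0.20 and 3.91 ± 0.20, so that its positive difference is a smaller fall. With no fold threshold 21 members differed in their change (34.8% of all genes).

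**Figure D4:**
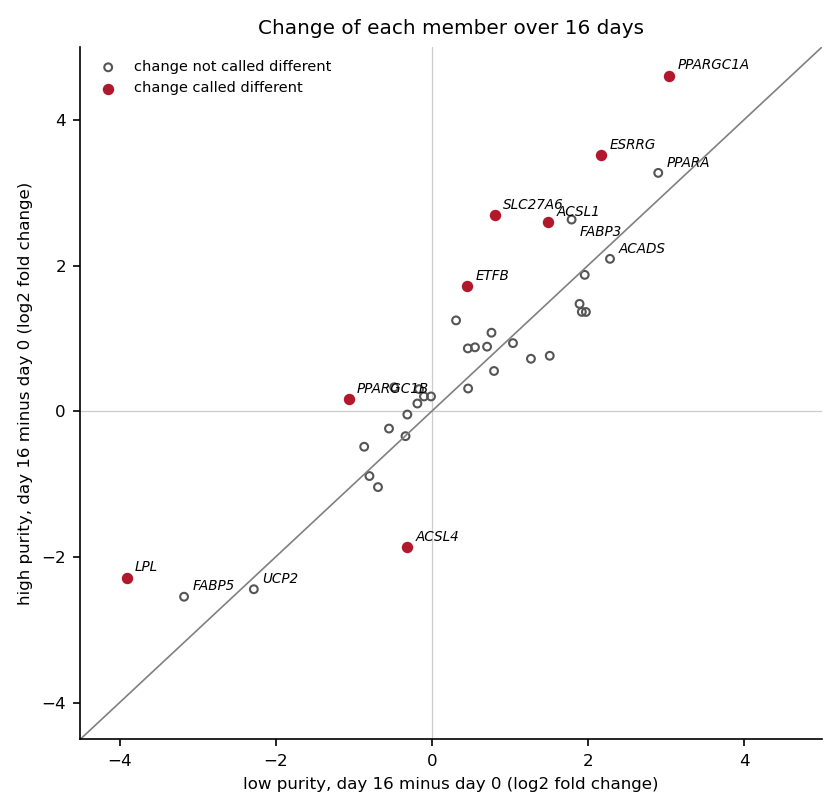
Log2 change from day 0 to day 16 of each tested member in the low-purity class (x axis) and the high-purity class (y axis), with the line of equal change. The 8 members in red, whose change differed between classes, include PPARGC1A (3.04 and 4.61) above the line and ACSL4 below it.

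The members were also expressed relative to TNNT2, as log2((TPM + 1)/(TNNT2 TPM + 1)) with the class means then subtracted. The high-purity class was higher in TNNT2 itself by 1.46 on day 13 and 1.89 on day 16 (limma adjusted p = 0.000418 and 2.39e-06). On days 8, 10, 13 and 16 the median over the 40 members of this class difference in ratio was -0.83, -1.33, -1.06 and -1.44. For members near 0 TPM, such as LPL in low-purity wells, FABP4 and CPT1B, the added 1 sets the ratio, so no count of members by sign is given. Of the members called higher on day 16, SLC27A6 had a class difference in ratio of 0.09 on that day. The others were below 0: ESRRG -0.24, PPARGC1A -0.47, LPL -0.48, ACSL1 -0.51, ETFB -0.55, PPARGC1B -0.66 and ESRRA -0.77. ACSL4, called lower, was at -3.14. These ratios are descriptions and were not tested. As per-cell measures they are limited, since many members are also made by other cell types.

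A wider list of 54 genes of lipid handling and fuel choice outside the 40, of which 49 passed the filter, had 10 genes higher and 1 lower in the high-purity class on day 16, with a median difference of 0.39. Of all genes 5.76% were higher and 7.65% lower on that day, and their median difference was 0. SLC2A4, the insulin-responsive glucose transporter, was at 46.8 to 56.6 TPM in high-purity and 5.96 to 13.1 TPM in low-purity wells (2.46 ± 0.29, limma adjusted p = 1.78e-09). FABP2, a further binding protein, was at 25.8 to 29.9 and 3.95 to 7.31 TPM (2.32 ± 0.24, adjusted p = 3.77e-11), and RXRG, a partner receptor of the PPARs, at 59.5 to 62.5 and 10.1 to 19.1 TPM (2.14 ± 0.22, adjusted p = 2.87e-11). SLC22A5, the carnitine transporter, was lower, at 9.64 to 12.0 against 25.1 to 27.7 TPM (-1.04 ± 0.15, adjusted p = 1.61e-07). On day 8, 6 of the 49 were higher (4.66% of all genes) and 0 lower (7.5%), and on day 13, 9 (4.55%) and 2 (6.23%).

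The RNA-only experiment asks whether the class difference recurs over 3 lines. Its days end before the day 8 differences of the time course, and its stages 2 to 4 match days 2, 4 and 6 in WTC11 only. With edgeR's quasi-likelihood test on read counts over 23848 genes, 39 of the members were tested (all but FABP4). No member was called between classes at any stage, nor was any gene (0% of all genes at each stage). An unadjusted p under 0.05 was seen for 1, 5, 2 and 6 members at stages 1 to 4 by edgeR, and for 1, 6, 3 and 7 by DESeq2, which also called none. Over all genes tested edgeR gave such a p for 354, 1896, 1798 and 2876. The member with the smallest edgeR p-value at stage 4 was ACSL1, at 13.9 and 2.31 TPM in high- and low-purity H9, 19.9 and 14.1 TPM in IMR90-4 and 16.9 and 5.13 TPM in WTC11 (log2 1.59, edgeR adjusted p = 0.294). ESRRG followed with 3.64 and 0.792 TPM, 4.58 and 2.60 TPM, and 3.38 and 1.39 TPM in the same order of lines (log2 1.42, edgeR adjusted p = 0.305). Both were higher in the high-purity library of each of the 3 lines, and neither passed the adjustment. As they were picked for small p-values in a test blocked by line, that agreement is not separate evidence. At stage 4 PPARGC1A was higher in the high-purity library of H9 (1.87 and 0.601 TPM) and WTC11 (2.75 and 1.07 TPM) but not of IMR90-4 (4.55 and 4.78 TPM). At stage 3, ACSL1 was at 1.02 and 0.629 TPM in H9, 2.76 and 0.478 TPM in IMR90-4 and 1.68 and 0.413 TPM in WTC11 (log2 1.65, edgeR adjusted p = 0.532). Without H9 that difference was 2.17 and was called (edgeR adjusted p = 0.02). In the time course ACSL1 was called lower in the high-purity class on day 4, the opposite sign. ACADS and FABP5, called on day 2, were also opposite at stage 2 (log2 -0.09 and 0.24). PPARGC1B and LPL, called on day 6, were so at stage 4 (-0.16 and -0.21). FABP3 at stage 3 (-0.35) and ACADS at stage 4 (0.53) had the sign of their calls on days 4 and 6.

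Other members with the smallest p-values were likewise not called. At stage 1 these were SLC27A1 (5.54 and 4.06 TPM in high- and low-purity H9, 3.56 and 2.91 TPM in IMR90-4, 2.82 and 2.24 TPM in WTC11, log2 0.37, edgeR adjusted p = 1), ACADVL (52.0 and 41.0, 36.1 and 31.1, and 42.6 and 36.2 TPM, log2 0.28, adjusted p = 1) and CD36, which was at or under 0.169 TPM. At stage 2 SLC27A6 was at 13.9 and 5.46 TPM in H9, 11.6 and 6.08 TPM in IMR90-4 and 2.94 and 1.69 TPM in WTC11 (log2 0.99, edgeR adjusted p = 0.578). SLC27A1 and DECR1 followed with log2 0.42 and 0.28 (adjusted p = 0.578 and 0.59). At stage 4 CPT1A was at 1.16 and 0.452, 1.94 and 1.45, and 1.12 and 0.862 TPM (log2 0.69, edgeR adjusted p = 0.324). In each of these genes the high-purity library was above the low-purity one in all 3 lines at the stage named. They were picked for the smallest p-values of a test blocked by line, which favours 1 direction in all lines. That agreement is therefore not separate evidence.

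PPARGC1A at stage 3 was at 0.390 and 0.0134 TPM in high- and low-purity H9, 0.244 and 0.249 TPM in IMR90-4, and 0.240 and 0.147 TPM in WTC11 (log2 1.27, edgeR adjusted p = 0.723). LPL had the opposite sign at stage 3 without passing the adjustment (log2 -2.54, edgeR adjusted p = 0.582). Its levels there were 0 and 0.0568 TPM in high- and low-purity H9, 0.0376 and 0.635 TPM in IMR90-4, and 0.236 and 0.482 TPM in WTC11, all far below stage 1 (5.94 to 20.01 TPM).

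**Figure D5:**
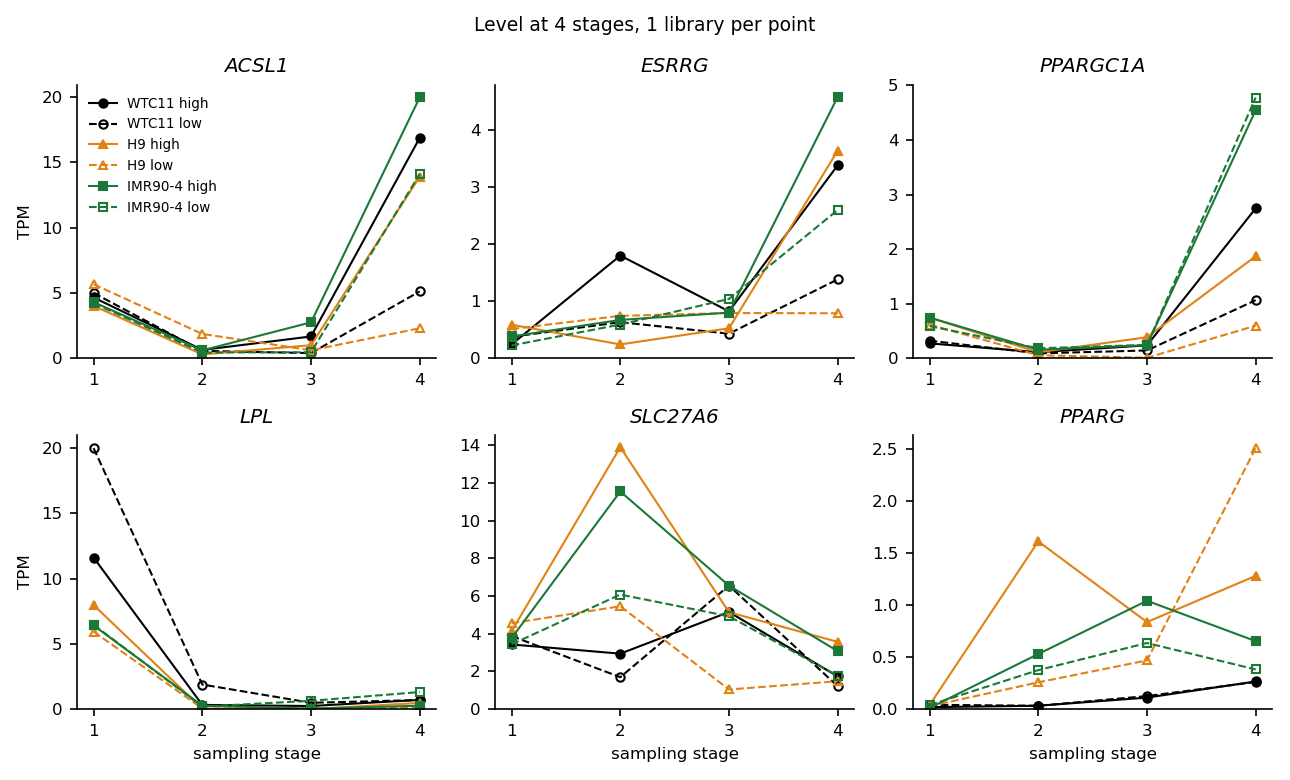
TPM of 6 members at 4 stages in H9, IMR90-4 and WTC11 (filled points and solid lines, high purity; open points and dashed lines, low purity). At stage 4 ACSL1 and ESRRG of the high-purity libraries lie above the low-purity ones in each line, and LPL has dropped from 5.94 to 20.01 TPM at stage 1 to at most 1.31 TPM.

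Over stages, with the 6 differentiations as blocks, LPL and ACSL1 were lower at stage 2 and PPARGC1A, ESRRG and ACSL1 higher at stage 4. Against stage 1, 1 member rose (14.8% of all genes did) and 5 fell (10.8%) at stage 2, 5 rose (20.5%) and 9 fell (15.7%) at stage 3, and 8 rose (23.4%) and 5 fell (16.2%) at stage 4. These comparisons share the stage 1 libraries. With no fold threshold 16, 22 and 28 members differed from stage 1 at stages 2, 3 and 4 (50.9, 62.4 and 65.3% of all genes). The member medians were -0.06, -0.19 and -0.12, where those of all genes were 0.03, 0.06 and 0.09. LPL fell by 5.02, 5.74 and 4.21 on the log2 scale at stages 2, 3 and 4 (edgeR adjusted p = 1.14e-05, 2.09e-06 and 2.06e-05). ACSL1 fell by 2.56 at stage 2 and was above stage 1 by 1.36 at stage 4 (adjusted p = 0.000422 and 0.0193), a rise that was 0.98 without IMR90-4 and 1.56 without WTC11 (adjusted p = 0.197 and 0.0581). PPARGC1A fell by 2.16 at stage 2 and rose by 2.04 at stage 4 (adjusted p = 0.000578 and 0.000464), and ESRRG rose by 2.77 at stage 4 (adjusted p = 2.74e-05). PPARG rose by 3.37, 3.98 and 4.67 (adjusted p = 0.000633, 7.42e-05 and 1.42e-05), to at most 2.51 TPM, in low-purity H9 at stage 4.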

How the data were processed

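RNA was measured in 56 wells of the multi-omic WTC11 time course and in 24 RNA-only libraries. The submitters' processing notes name STAR 2.5.3a, featureCounts 2.0.3 and hg38. The authors deposited read counts and TPM per gene, with no header stating how TPM was made. In the time course 0 of 56 TPM columns matched the count column of the same name, 50 matched one of another name and 6 matched none. Which of these carries the right sample names was not settled. The deposited TPM was used under its own column names, and the class and day of every well rest on those names. Reads were recovered from the TPM with gene lengths solved from the RNA-only tables (37194 genes whole within 0.01 read, all 40 members included). In the RNA-only data all 24 columns matched, and 36 broken lines were left out.

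TPM was scaled by TMM factors and log2(TPM + 1) was fitted with limma 3.58.1 (trend, 16 group means, 40 residual degrees of freedom) over 25664 genes that reached 1 TPM in 3 or more wells. RNA-only counts were fitted with edgeR 4.0.16 (quasi-likelihood, 23848 genes). The design for classes had line-by-stage means and 8 residual degrees of freedom, and that for stages had differentiation blocks and 15. DESeq2 1.42.0, R 4.3.3, Python 3.11.15, pandas 2.3.3 and numpy 2.4.6 were also used. The fits were tested on simulated data. The other settings tried were no fold threshold, a pseudocount of 0.1, no scaling, RLE scaling, no filter, a replicate block, edgeR on recovered reads and DESeq2. Each library of the time course, and each line of the RNA-only experiment, was also left out in turn. The day 2 minus day 0 comparison was added after seeing the data. Members and lists were chosen with earlier results of these data known. Values by library are given for members called between classes on day 13 or 16, the 3 largest calls in each direction on other days, the 3 largest rises and falls from day 0 to day 16 per class, and the 3 smallest p-values per RNA-only stage (19 members). Of other pathway genes the 3 largest calls in each direction on day 16 are named. Further members were named after their values were seen, to complete a role. Read numbers limit precision to counting error, and PCR copies were not told apart.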

Additional observations from a re-analysis of the deposited data

Results flagged for a closer look

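The check for outlying wells covered the 19 members named by rule and the sum of all members, by class and day. In 220 groups of 4 wells, 7 held 1 well far from the other 3, and chance alone marks about 1 in 20 such groups. In the low-purity class these were the summed TPM of all members in well 3 of day 4 (1124 TPM), LPL in well 2 of day 10 (1.40 TPM), ACSL4 in well 3 of day 6 (21.2 TPM), ACADVL in well 2 of day 8 (92.8 TPM), DECR1 in well 2 of day 4 (21.6 TPM) and ESRRG in well 4 of day 4 (5.4 TPM). In the high-purity class it was ESRRG in well 1 of day 6 (8.56 TPM).

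The change from day 0 to day 16 differed between the classes by limma's test of the difference itself for 8 members. On the log2 scale the high-purity change exceeded the low-purity change by 1.62 for LPL, 1.89 for SLC27A6, 1.099 for ACSL1, 1.27 for ETFB, 1.56 for PPARGC1A, 1.23 for PPARGC1B and 1.34 for ESRRG, and for ACSL4 it was lower (-1.55). Class, passage and differentiation cannot be told apart in these wells.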

How the results depend on the processing

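Every member difference called here kept its direction under each setting tried; members that were not called were not followed for direction. With no fold threshold the members called between classes on days 0, 2, 4, 6, 8, 13 and 16 were 14, 16, 21, 21, 29, 26 and 26 of 38 (14.6, 37.4, 36.8, 39.9, 44.1, 35.9 and 43% of all genes). From day 0 to days 2, 4, 8 and 16 they were 22, 27, 32 and 34 in the high-purity class and 28, 28, 32 and 33 in the low-purity class, 21 for the difference in change, and 16, 22 and 28 at stages 2, 3 and 4 of the RNA-only experiment. A pseudocount of 0.1, and edgeR on recovered reads, each called 1 member on day 0, 5 on day 4 and 14 from day 0 to day 2 in the low-purity class. Of all 25664 genes the pseudocount of 0.1 called 244 higher and 537 lower, 1731 and 1727, and 4576 and 2450 in these comparisons. Of 24223 genes edgeR called 170 and 473, 1846 and 1826, and 4301 and 2382. Without scaling the difference in change was called for 5 members, ACSL1, ETFB and PPARGC1B falling below the fold threshold. So did PPARGC1A on day 8, FABP3 on day 13, ESRRA on days 8, 13 and 16 and HADHB from day 0 to 16 in the high-purity class, along with 5 changes to days 2, 4 or 8 (ACSL3 and FABP5 on day 4, UCP2 on day 2, CPT1A on days 4 and 8). ACSL4 became called lower on day 13, and the all-gene median moved to -0.18, -0.13 and -0.12 on days 8, 13 and 16. Leaving out 1 library at a time gave 9 to 11 calls on day 8, 7 to 11 on day 13, 8 to 9 on day 16 and 8 to 9 for the difference in change. In the RNA-only experiment a whole line was left out at a time. At stage 3 that gave 0 to 1 calls between classes, ACSL1 being called without H9. Where leaving out a library left 1 high-purity well on day 13, that well was assumed to vary like the other groups.

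Same-numbered wells did not deviate together by this measure (24 pairs, correlation -0.0177 to 0.0319). Pairing limited to some genes was not tested. Of the called members given by well above, low-purity well 1 was the lowest of its class on day 8 for SLC27A6, ACSL1, CPT1A, ACADS, ECI1, ETFB and PPARGC1A. It was not the lowest for LPL and FABP3. On day 16 low-purity well 1 was lowest for SLC27A6, ACSL1, ACSL4, PPARGC1A, PPARGC1B, ESRRA and ESRRG, and not for LPL and ETFB. ESRRA was not called on days 8, 13 and 16 without low-purity well 1 of the day. A replicate block changed the calls between classes only on day 13, from 9 to 8 (ESRRA), and left 11 on day 8 and 9 on day 16. Without the pairing by differentiation, stages 2, 3 and 4 gave 7, 12 and 14 calls. The share of all genes called without that pairing is not given here. Genes near 0 reads, such as LPL in low-purity wells, have folds set by the pseudocount at this depth.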
